A study of Mus musculus with 9 samples.

Results

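The genes described here encode the cytosolic CCT chaperonin and the chaperonin machinery of the mitochondrial matrix. The members are 10 of the 11104 named genes measured above noise: the CCT subunit genes Tcp1, Cct2, Cct3, Cct4, Cct5, Cct7 and Cct8, and the mitochondrial genes Hspd1, Hspe1 and Hspa9. They were taken by gene symbol, and all 15 probes annotated to these 10 symbols were kept by the filter on dim probes. Splenic B lymphocytes of C57BL/6 mice aged 8 weeks were labelled untreated, or were exposed to a crosslinking goat antibody fragment against mouse IgM at 2.5 µg/ml for 1 h or 2 h. Each of these 3 groups has 3 Illumina bead arrays of biotin-labelled RNA. The protocol also names IL-4 (5 ng/ml) and CD40L (200 ng/ml), and the labels do not say which cells received them. The series' design text gives 3 h where the sample labels give 1 h and 2 h, and the sample labels were followed. Whether the 3 arrays of a label are separate animals or cultures is not stated, so p-values measure the spread between these arrays, which may be technical.

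CCT, also called TRiC, is a ring-shaped chaperonin of the cytosol built from several related subunits, and it folds newly made actin and tubulin in a cycle driven by ATP. Each subunit gene encodes a different position of the same ring, and Tcp1 encodes the alpha subunit. In the mitochondrial matrix, Hspd1 forms the folding chamber, Hspe1 is the lid that closes it, and Hspa9 (mortalin) is the Hsp70-type motor protein that pulls in imported precursors and passes them on. Lymphocytes that leave the resting state enlarge and make more protein, which raises the load on such folding machines.

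Hspd1 and Hspe1 are neighbours with opposite orientation, and their starts lie within one short stretch of chromosome 1, so their promoter windows are printed first, beside those of 2 CCT genes whose values differed. Windows run from 250 bases before to 50 bases after an annotated start (RefSeq, GRCm38.p6), and 8 of the 10 members had at least 1 window in the table used. The Hspe1 window is chr1:55087898-55088197 on the plus strand. Hspd1, on the minus strand, has 2 annotated starts, with windows at chr1:55087883-55088182 (start a) and chr1:55088194-55088493 (start b). The Cct3 window is chr3:88296885-88297184 on the plus strand, and that of the outer of the 2 Cct5 starts is chr15:31601797-31602096 on the minus strand. Capitals mark heat shock elements or an E-box in the Hspe1 and Hspd1 windows, and CCAAT boxes in the Cct3 window.
Hspe1: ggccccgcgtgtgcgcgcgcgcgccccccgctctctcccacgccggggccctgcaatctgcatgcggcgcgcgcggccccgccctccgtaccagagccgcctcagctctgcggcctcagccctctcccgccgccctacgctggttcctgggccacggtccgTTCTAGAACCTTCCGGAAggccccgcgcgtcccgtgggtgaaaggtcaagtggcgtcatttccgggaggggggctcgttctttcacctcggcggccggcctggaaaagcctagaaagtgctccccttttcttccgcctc
Hspd1 start a: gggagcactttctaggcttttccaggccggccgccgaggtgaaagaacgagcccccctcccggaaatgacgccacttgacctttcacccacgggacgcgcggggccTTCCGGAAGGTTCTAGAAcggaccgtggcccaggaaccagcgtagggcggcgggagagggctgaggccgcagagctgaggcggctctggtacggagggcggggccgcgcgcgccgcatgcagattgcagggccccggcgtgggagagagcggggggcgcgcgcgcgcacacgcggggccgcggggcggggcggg
Hspd1 start b: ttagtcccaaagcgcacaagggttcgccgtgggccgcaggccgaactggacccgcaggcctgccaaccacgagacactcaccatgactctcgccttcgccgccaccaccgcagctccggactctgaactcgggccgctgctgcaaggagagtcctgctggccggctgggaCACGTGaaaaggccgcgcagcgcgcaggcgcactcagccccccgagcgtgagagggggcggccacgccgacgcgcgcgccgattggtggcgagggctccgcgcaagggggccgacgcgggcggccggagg
Cct3: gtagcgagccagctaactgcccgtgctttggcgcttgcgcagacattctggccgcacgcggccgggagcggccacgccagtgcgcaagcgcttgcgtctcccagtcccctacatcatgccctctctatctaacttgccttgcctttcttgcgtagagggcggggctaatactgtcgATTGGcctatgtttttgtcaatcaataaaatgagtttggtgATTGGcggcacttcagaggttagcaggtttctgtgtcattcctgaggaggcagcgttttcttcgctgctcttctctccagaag
Cct5: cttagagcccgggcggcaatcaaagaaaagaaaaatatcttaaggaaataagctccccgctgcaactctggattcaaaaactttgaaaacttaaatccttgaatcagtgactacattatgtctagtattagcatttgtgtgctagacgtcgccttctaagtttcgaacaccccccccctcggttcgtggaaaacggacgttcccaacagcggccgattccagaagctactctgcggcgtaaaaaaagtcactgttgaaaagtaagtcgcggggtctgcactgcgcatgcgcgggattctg

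The Hspe1 start and start a of Hspd1 are 216 bases apart and point away from each other. Between them, at chr1:55088059-55088076, lies the run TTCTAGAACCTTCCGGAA, 89 bases before the Hspe1 start, which holds 2 overlapping matches to the heat shock element, searched as TTC, GAA and TTC with 2 bases of any kind between neighbours, one on each strand. The Hspd1 window shows the same bases read from the other strand. This motif occurred in 0.603% of all 32851 windows, and among the members only in those of Hspe1 and Hspd1. The E-box CACGTG occurred 80 bases before start b of Hspd1, in no other member, and in 7.15% of all windows. A CCAAT box was in windows of 4 members (Tcp1, Cct3, Cct7 and Hspd1) and in 37.4% of all windows, and the ETS motif CCGGAAG was in windows of 5 members and in 8.86% of all. These counts are of genes, some with 2 windows (11 windows in all), while the shares are of single windows. The ETS matches of Hspd1 and Hspe1 are the same bases, and they overlap the run above. Neither Cct5 window held any of these 4 motifs, which were searched on both strands. A match describes the letters only, and the motifs were chosen with the sequences in view.

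Several arrays did not follow their labels, which bears on every value below. Myc, a growth regulator gene induced early by the antigen receptor, had intensities of 57.0, 798 and 70.0 for untreated cells (in replicate order), 840.5, 583 and 816 for 1 h and 876, 56.4 and 801 for 2 h. Untreated replicate 2 thus lay with the treated arrays and 2 h replicate 2 with the untreated ones, and over all features each was nearest to an array of the other label, as was 1 h replicate 2. Of the 6 B cell markers with a named probe, 5 passed the noise filter, while Cr2 was not above noise. B cell identity was borne out by Cd79b, Ms4a1, Cd22 and Blnk, above noise on all 9 arrays. Pax5 was close to noise, at -1.19 to 15.9, and above the threshold on 5 of 9 arrays. The summed intensity of B cell markers was 11700.1, 5249.6 and 12440.2 for the untreated arrays, 9684, 3390.1 and 8449 for those of 1 h and 6436, 11188 and 5273 for those of 2 h. Erythroid markers (4 of 5 above noise) summed to 5069, 5201 and 5050.3 on untreated replicate 3, 1 h replicate 3 and 2 h replicate 1, and to 179.6 to 651 on the others. Neutrophil markers (7 of 7) were highest on the same 3 arrays, at 3826 to 5311 against 729 to 1554. The erythroid sums came almost entirely from the globin genes Hba-a1 and Hbb-bt. Alas2 was dim, at -5.24 to 21.4, as was Slc4a1, at 1.61 to 15.8, which was lowest on 2 h replicate 1. T cell markers summed to 198 to 354, with Cd3g, Cd4 and Cd8a not above noise, macrophage markers to 51.6 to 319, and Sdc1 and Prdm1 of the plasma cell list were not above noise. The T cell sums came mostly from Cd8b1 (158 to 319), with Cd3d at 5.09 to 34.6 and Cd3e at -3.43 to 11.9. The macrophage sums came mostly from Adgre1, except on 1 h replicate 2, where Adgre1 was at 6.20. In such bulk samples, fewer cells of a type and less RNA per cell cannot be told apart.

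Among the brighter CCT subunits (Tcp1, Cct3, Cct4 and Cct8), Cct3 had the widest span between arrays. Cct3, the gamma subunit, had deposited intensities of 806, 1958 and 796 for untreated cells (in replicate order), 980.1, 2349 and 1080.1 for 1 h and 2273, 852 and 1866 for 2 h. Untreated replicate 2, 1 h replicate 2 and 2 h replicates 1 and 3 were high and the other 5 arrays low, so the labelled groups overlapped. Cct8, the theta subunit, gave 957, 1233 and 935 for untreated cells (in replicate order), 889, 1685 and 935 for 1 h and 1522, 1024 and 1570.2 for 2 h. Tcp1 gave 1233, 1530.4 and 1195 for untreated cells (in replicate order), 1343, 1933 and 1116 for 1 h and 1534, 1385 and 1639.7 for 2 h. In both genes the same 4 arrays were the highest, with a smaller span than in Cct3: the highest array was 2.95 times the lowest for Cct3, 1.90 times for Cct8 and 1.73 times for Tcp1.

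The remaining subunits did not share that pattern, apart from the dim Cct7. Cct4, the delta subunit, varied least and gave 3038, 2545 and 2621 for untreated cells (in replicate order), 3110.2, 2800.5 and 2498 for 1 h and 2641, 2863 and 2573 for 2 h. Its highest array was 1.25 times its lowest, and all 3 groups overlapped. Cct5, the epsilon subunit, gave 56.5, 41.2 and 59.0 for untreated cells (in replicate order), 50.6, 56.9 and 43.1 for 1 h and 93.1, 83.3 and 138 for 2 h. All 3 arrays labelled 2 h were above the 6 others, 2 h replicate 2 included. Cct2, the beta subunit, was dim, at 31.4, 33.6 and 21.6 for untreated cells (in replicate order), 31.6, 27.5 and 16.7 for 1 h and 46.3, 22.5 and 42.3 for 2 h, with 2 h replicates 1 and 3 the highest. Cct7, the eta subunit, was close to noise: it ranged from 4.29 to 24.8 with a median of 12.8, was above the noise threshold (median 6.44) on 8 of 9 arrays, and its highest 4 arrays were those of Cct3. For Cct2, Cct5 and Cct7 the offset of 50 added before log2 makes a fold change smaller than in the intensities.

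**Figure D1:**
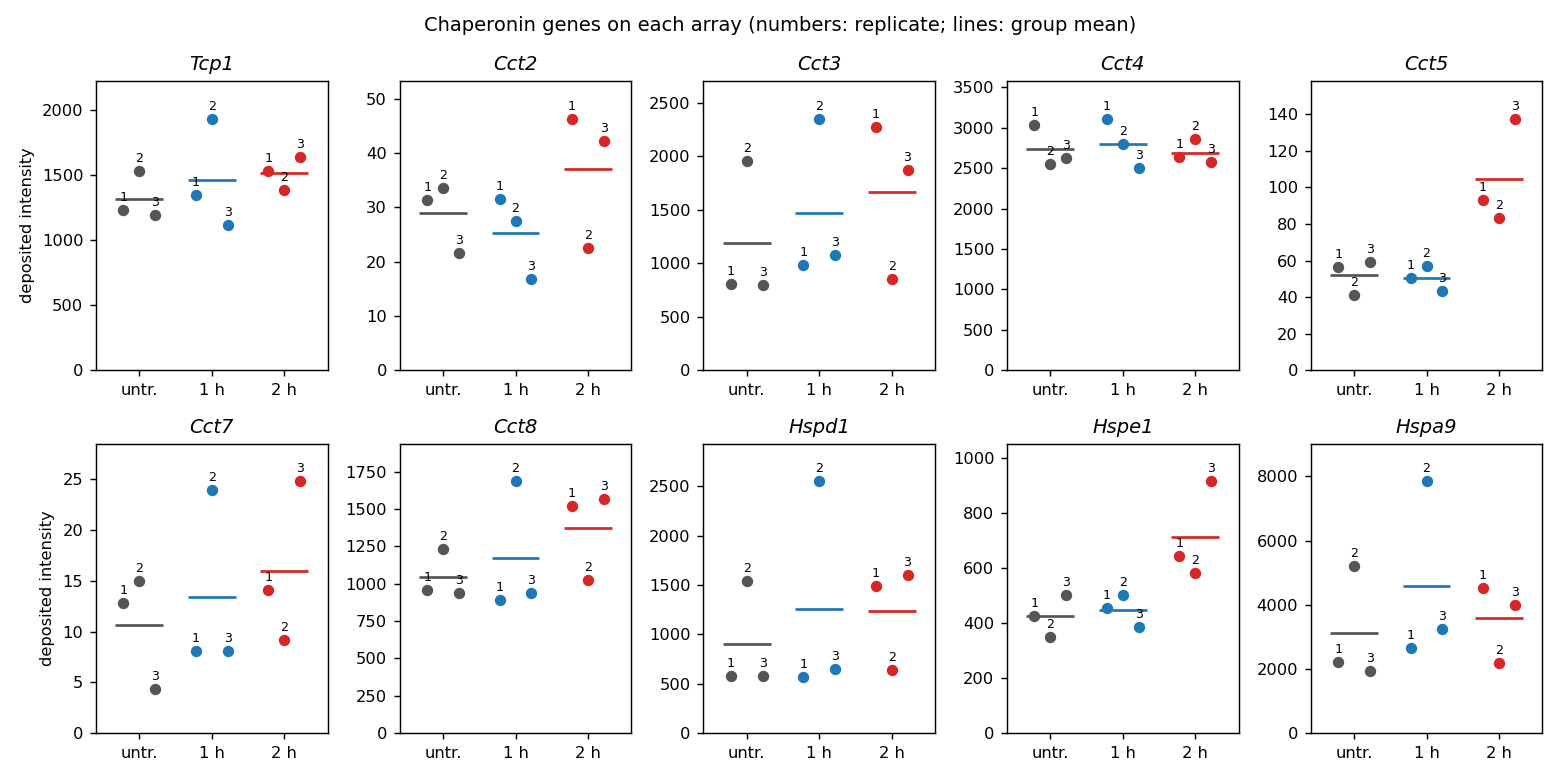
Deposited intensity of the probe used for each of the 10 genes (linear axes from 0, one scale per gene) on the 9 arrays, by labelled group. Points carry the replicate number and lines are group means; Cct5 and Hspe1 are the genes in which every 2 h array lies above all others, while Cct3, Hspd1 and Hspa9 are high on untreated replicate 2 and 1 h replicate 2 and low on 2 h replicate 2.

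The mitochondrial members gave both patterns. Hspd1, the folding chamber, had intensities of 577, 1536 and 579 for untreated cells (in replicate order), 565, 2549.9 and 651 for 1 h and 1487, 634 and 1596 for 2 h. Its values fell into a high set of 4 arrays from 1487 to 2549.9 and a low set of 5 arrays from 565 to 651, and the high set held at least 1 array of each label. Hspa9, the import motor, gave 2207, 5202 and 1918 for untreated cells (in replicate order), 2655, 7843 and 3226 for 1 h and 4525, 2188 and 4004 for 2 h. It was again highest on 1 h replicate 2, 4.09 times its lowest array, and 2 h replicate 2 was among the untreated values. Hspe1, the lid, gave 426, 350.1 and 499.8 for untreated cells (in replicate order), 455, 502 and 383 for 1 h and 643, 581 and 914 for 2 h. Here all 2 h arrays were above all untreated and 1 h arrays, and untreated replicate 2, high for Hspd1, was the lowest of the 9.

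Hspd1 and Hspe1, which share the stretch printed above and work as one complex, therefore ordered the arrays differently. Relative to each gene's mean over the 9 arrays, untreated replicate 2 was at 0.63 for Hspd1 and -0.48 for Hspe1 on the log2 scale. The array labelled 2 h replicate 2 was at -0.58 for Hspd1 and 0.17 for Hspe1, and 1 h replicate 2 at 1.35 and -0.017. On 2 h replicate 3 both were high, at 0.69 and 0.79. Cct3 and Cct5 divided in the same way, with 2 h replicate 2 at -0.60 and 0.20 and untreated replicate 2 at 0.56 and -0.35.

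**Figure D2:**
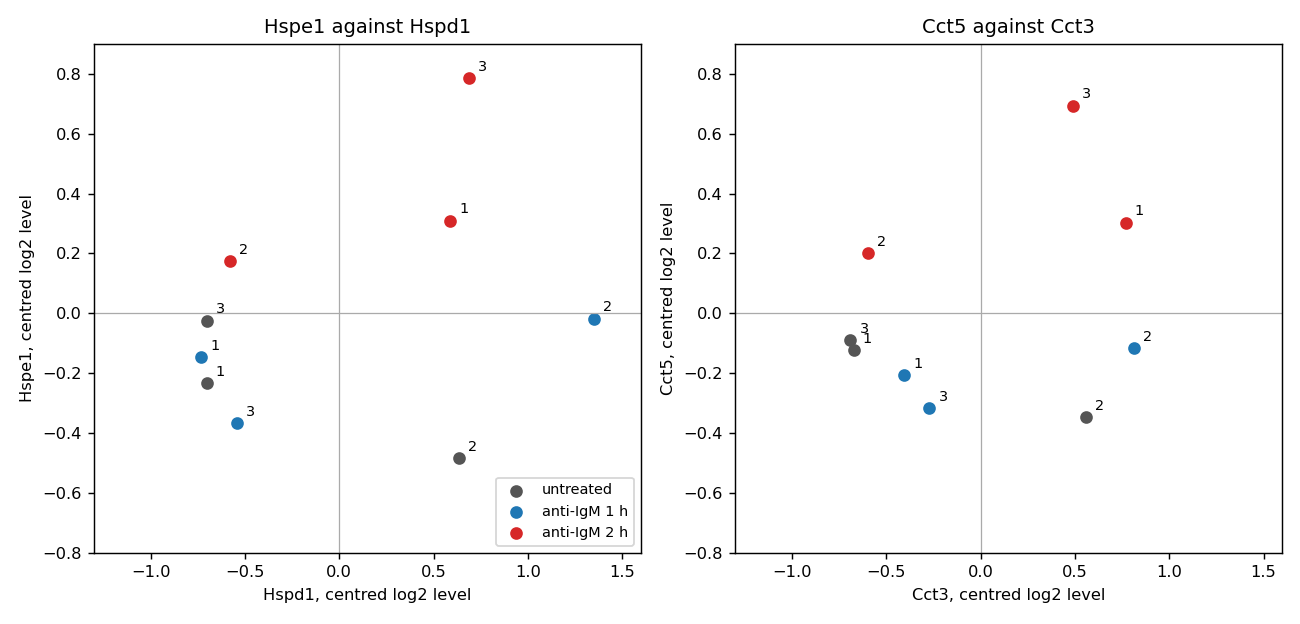
Log2 level of Hspe1 against Hspd1 (left) and of Cct5 against Cct3 (right), each relative to the gene's mean over the 9 arrays; points are arrays, coloured by labelled group and numbered by replicate. The 2 h arrays are the highest 3 on both vertical axes, while on the horizontal axes 2 h replicate 2 lies with untreated replicates 1 and 3.

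Counted over the members, the 4 highest arrays were untreated replicate 2, 1 h replicate 2 and 2 h replicates 1 and 3 for 6 of 10 (Tcp1, Cct3, Cct7, Cct8, Hspd1 and Hspa9), against 10.5% of all 14640 features. This set of arrays was picked from the members' own values, so the count is a description. The summed B cell markers were lowest on the same 4 arrays, and their part in the members' values was not tested. The highest single array was 1 h replicate 2 for 5 of 10, against 18.3% of all features. Each array labelled 2 h was above every untreated and every 1 h array for 2 of 10 (Cct5 and Hspe1), against 3.49%.

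Setting 1 h against untreated cells asks about the first hour of receptor crosslinking. Over the members, the median log2 difference was 0.091 (range -0.069 to 0.53), against -0.0047 over all features, and 8 of 10 were above 0, against 48.6% of all features. Both rested on 1 array: without 1 h replicate 2 the median was -0.072 and 2 of 10 were above 0. Limma called 0 of the 10 members at an adjusted p under 0.05, where 0% of all features were called, and 0 of 10 had an unadjusted p under 0.05, against 190 of 14640 features. The groups were fully apart for 0 of 10 members, against 2.64% of features with all 1 h arrays higher and 2.38% with all lower. Hspa9 had the largest difference of the members, 0.53 ± 0.51 (moderated SE, n = 3 arrays per group, limma, adjusted p = 1), and it was 0.059 without 1 h replicate 2. Hspd1 had 0.28 ± 0.63, and -0.38 without that array. Cct3 had 0.31 ± 0.50, and -0.070 without it.

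Setting 2 h against untreated cells asks about the hour after that as well. The median over the members was 0.32 (range -0.019 to 0.67), against -0.0066 over all features, and 9 of 10 were above 0, against 48.6%. Limma called 0 of 10 members, against 0% of all features, with 2 of 10 at an unadjusted p under 0.05, against 727 of 14640. Hspe1 had a log2 difference of 0.67 ± 0.19 (moderated SE, n = 3 arrays per group, limma, adjusted p = 0.825), or 1.59-fold on the scale of intensity plus 50. Cct5 had 0.59 ± 0.15 (adjusted p = 0.825 in the same limma fit). For these 2 of 10 members the 2 h arrays were all above the untreated ones, against 6.8% of all features, and for 0 of 10 all below, against 4.37%. Hspd1 and Cct3 had differences of similar size with a wider error, 0.49 ± 0.63 and 0.49 ± 0.50, Cct8 had 0.37 ± 0.26 and Hspa9 0.28 ± 0.51. Without 1 array, the difference ranged from 0.49 to 0.79 for Hspe1 and 0.44 to 0.68 for Cct5, and from 0.26 to 0.93 for Hspd1 and 0.0079 to 0.72 for Hspa9. Cct4 had -0.019 ± 0.12. Leaving out untreated replicate 3 put the members' median at 0.20, the lowest of the 9 such fits, and it was highest at 0.58 without 2 h replicate 2.

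**Figure D3:**
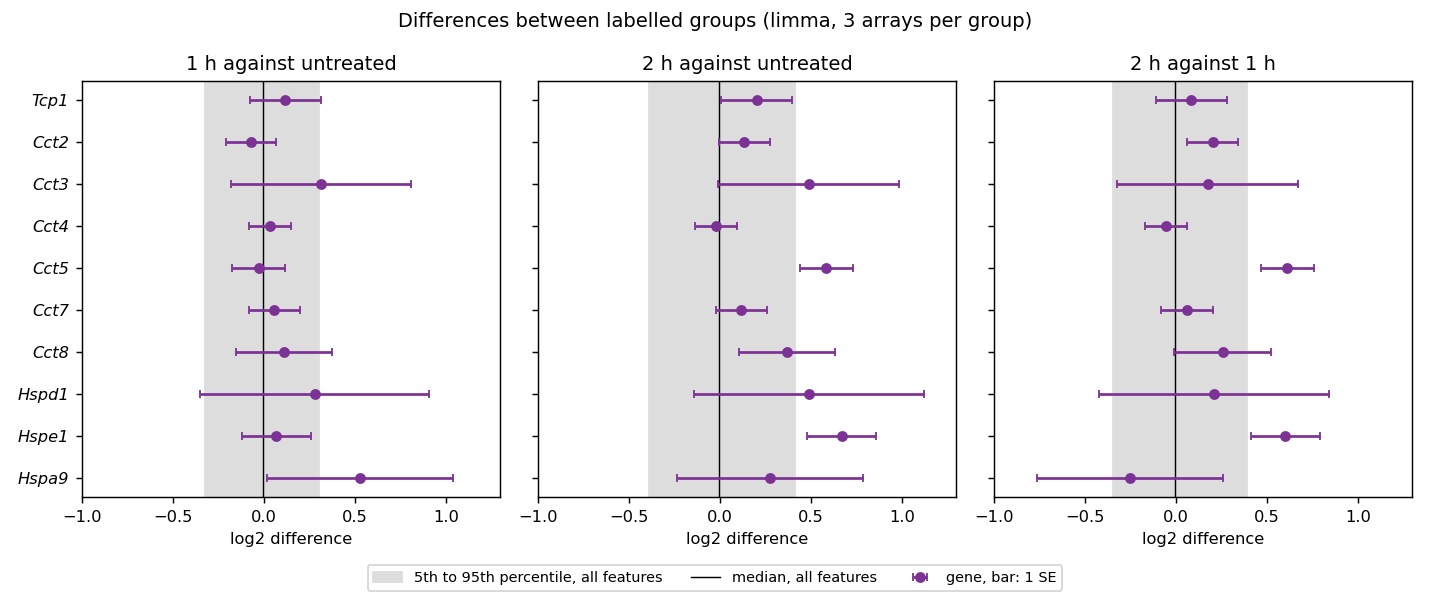
Log2 differences of the 10 genes in the 3 comparisons of labelled groups, with bars of 1 moderated standard error (limma, n = 3 arrays per group); the grey band spans the 5th to 95th percentile of all features and the line is their median. Cct5 and Hspe1 lie right of the band with short bars in both comparisons that involve 2 h, and Hspd1, Cct3 and Hspa9 have the widest bars.

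Between 1 h and 2 h, in a comparison that shares the 2 h arrays with the previous one, the same 2 genes stood out in size. Cct5 had 0.61 ± 0.15 (limma, n = 3 arrays per group, adjusted p = 0.437) and Hspe1 0.60 ± 0.19 (adjusted p = 0.566). The 2 h arrays were all above the 1 h arrays for 2 of 10 members, against 6.93% of all features, and all below for 0 of 10, against 4.43%. The median over the members was 0.19 against -0.0061 over all features, 8 of 10 were above 0 against 48.6%, and limma called 0 of 10 against 0% of all features, with 2 of 10 at an unadjusted p under 0.05 against 1001 of 14640. Leaving out 1 array moved the members' median to between 0.0096 (without 1 h replicate 3) and 0.42 (without 1 h replicate 2). Hspa9 had -0.25 ± 0.51, and 0.22 without 1 h replicate 2. Ordered by group mean, Hspe1 and Cct5 were highest at 2 h, with untreated and 1 h differing by 0.070 ± 0.19 and -0.027 ± 0.15, within their error. With 3 arrays against 3, an exact two-sided permutation test of a single gene cannot give a p below 0.1.

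The values were also taken without the 3 arrays labelled replicate 2, which is a choice made after seeing the data: it narrows the spread within groups, so its p-values are too small to test the treatment. For Hspe1 and Cct5 the 2 h against untreated difference hardly moved, to 0.68 and 0.60. For the genes that followed the other pattern it was larger, 1.34 for Hspd1, 1.31 for Cct3, 1.03 for Hspa9 and 0.68 for Cct8, with Tcp1 at 0.37. These 7 of 10 members passed limma's threshold there as higher, against 15.7% of all features, while Cct2 (0.30), Cct4 (-0.11) and Cct7 (0.25) did not. Between 2 h and 1 h, 6 of 10 passed as higher, against 12.1% of all features, among them Hspd1 at 1.28 and Cct3 at 0.97. Between 1 h and untreated only Hspa9 did, at 0.50, so 1 of 10 against 3.94%, with Hspd1 at 0.063 and Cct3 at 0.34. In these fits 0 of 10 members passed as lower, against 3.39%, 19% and 13.7% of all features in the 1 h, 2 h and 2 h against 1 h comparisons. With all arrays kept but weighted by limma, which gave the replicate 2 arrays the lowest weights, 6 of 10 members passed as higher at 2 h against untreated (Cct3, Cct5, Cct8, Hspd1, Hspe1 and Hspa9), against 15% of features, and 0 of 10 as lower, against 18.5%. At 1 h it was 0 of 10, against 0.00683% higher and 0% lower, and between the times 0 of 10, against 0.137% and 0.0342%.

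Of the 15 probes, 5 were further probes of a gene. The other Hspd1 probe gave 186, 319 and 167 for untreated cells (in replicate order), 161, 1069 and 147 for 1 h and 376, 155 and 334 for 2 h, with the same 4 arrays high and 1 h replicate 2 further above the rest. Its log2 differences were 0.43 at 1 h and 0.27 at 2 h, against 0.28 and 0.49 for the probe used, and between the times the sign differed (-0.16 against 0.21). The other Hspa9 probe spanned 657 to 2923 and its differences were 0.54 at 1 h and 0.26 at 2 h, close to those of the brighter one. The other bright Cct3 probe spanned 639 to 2285, with 0.36 at 1 h and 0.27 at 2 h, and its 2 h against 1 h difference had the opposite sign (-0.091 against 0.17). The remaining Cct3 probe, of another transcript accession, was dim (1.78 to 13.4) and above the noise threshold on 6 of 9 arrays. Against untreated, its differences had the opposite sign to those of the probe used, -0.17 at 1 h, where all 1 h arrays were below all untreated ones, and -0.12 at 2 h (limma, not called). The dimmer Tcp1 probe gave 119, 107 and 133 for untreated cells (in replicate order), 133, 218 and 83.4 for 1 h and 212, 143 and 198 for 2 h, with a 2 h against untreated difference of 0.45, against 0.20 for the brighter one, and with all 2 h arrays above all untreated ones. Cct5 and Hspe1 had 1 probe each, so no second probe was there to compare.

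Genes that work with CCT were counted from a list of 11, of which 10 were measured: Cct6a and Cct6b, the prefoldin subunits that hand nascent chains to CCT, and phosducin-like and thioredoxin-like cofactors. Limma called 0 of 10 in each comparison, and 0% of all features. Before adjustment, 0, 1 and 1 partners had a limma p under 0.05 for 1 h, 2 h and 2 h against 1 h. Across the 14640 features, 190, 727 and 1001 did. The differences above 0 were 6 of 10 at 1 h and 5 of 10 at 2 h, against 48.6% of all features, with medians of 0.013 and 0.061. Cct6a, the zeta subunit of the same ring, gave 1095, 2728 and 1196 for untreated cells (in replicate order), 1192, 3674 and 1319 for 1 h and 2263, 1286 and 2068 for 2 h, with the arrays high that were high for Cct3 and Hspd1. The prefoldin gene Pfdn2 gave 473, 1246 and 572 for untreated cells (in replicate order), 596, 1644 and 772 for 1 h and 956, 493 and 1094 for 2 h, again highest on 1 h replicate 2. Pfdn5, another prefoldin subunit, was lowest on that array, at 4648 against 5702 to 7760.1 on the others, and Pfdn4 had 0.34 ± 0.34 at 2 h. A dimmer Pfdn4 probe had 0.94 at 2 h, with 367, 177 and 511 for 2 h (in replicate order) against 132 to 157 for untreated cells. The prefoldin gene Vbp1, named after its values were seen, gave 201, 158 and 182 for untreated cells (in replicate order), 202, 131 and 157 for 1 h and 221, 249 and 334 for 2 h, and was the only listed partner with all 2 h arrays above all others, as in Cct5 and Hspe1 (2 h against untreated 0.45 ± 0.17, limma adjusted p = 0.908).

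For the cytoskeletal clients of CCT, limma again called 0 genes, in comparisons that called 0% of all features. Of 8 listed actin and tubulin genes, 5 were measured. Those with a limma p under 0.05 before adjustment numbered 0, 1 and 1 in the 3 comparisons. Across the 14640 features the counts were 190, 727 and 1001. The clients' medians were 0.034 at 1 h and -0.086 at 2 h. The beta-actin gene Actb gave 10411, 13988 and 11069 for untreated cells (in replicate order), 11970.2, 16930.4 and 11939 for 1 h and 12272, 9587 and 11461 for 2 h, and the alpha-tubulin gene Tuba1b spanned 5635 to 8322. The Actb probes differed: a further bright one (1965 to 8241) had -0.59 at 1 h and -0.60 at 2 h. The Actb probe used had 0.19 and -0.086, and another bright one 0.16 and -0.0078. The dim Actb probes were below 0 at both times. The beta-tubulin gene Tubb5 gave 8694, 5581 and 7836 for untreated cells (in replicate order), 7806, 4534 and 6240.2 for 1 h and 4855, 7417 and 4519 for 2 h, so its 4 lowest arrays were the 4 on which Cct3 was highest. Tubb4b, another beta-tubulin gene, had -0.37 ± 0.17 at 2 h. Tubulin and actin genes have close paralogs, and how far the probes tell them apart was not tested.

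Partners of the mitochondrial chaperones comprise nucleotide exchange factors (Grpel1, Grpel2) and J-proteins (Dnaja3, Dnajc19, Hscb) of Hspa9, import and protein quality control genes. All 11 listed genes were measured, and limma called 0 in each comparison, as over all features (1, 0 and 0 listed genes at an unadjusted p under 0.05). Differences were above 0 for 8 of 11 at 1 h and 8 of 11 at 2 h, against 48.6% of all features, with medians of 0.069 and 0.021. The highest array was 1 h replicate 2 for 7 of these 11, against 18.3% of all features. The counts above 0 were not retaken without that array. For Clpp, 1 h replicates 1 and 3 were below every untreated array, so its 1 h difference of 0.069 rested on 1 h replicate 2. Clpp, the matrix protease subunit, gave 364, 552 and 434 for untreated cells (in replicate order), 336, 1001 and 293 for 1 h and 633, 337 and 635 for 2 h. Grpel1 gave 298, 539 and 393 for untreated cells (in replicate order), 387, 682 and 373 for 1 h and 669, 311 and 685 for 2 h, high on the 4 arrays on which Hspd1 was high. Dnajc19, a J-protein of the import motor, ranged from 942 to 1439, and Timm44, which tethers Hspa9 to the import channel, from 335 to 571, highest on 1 h replicate 2.

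**Figure D4:**
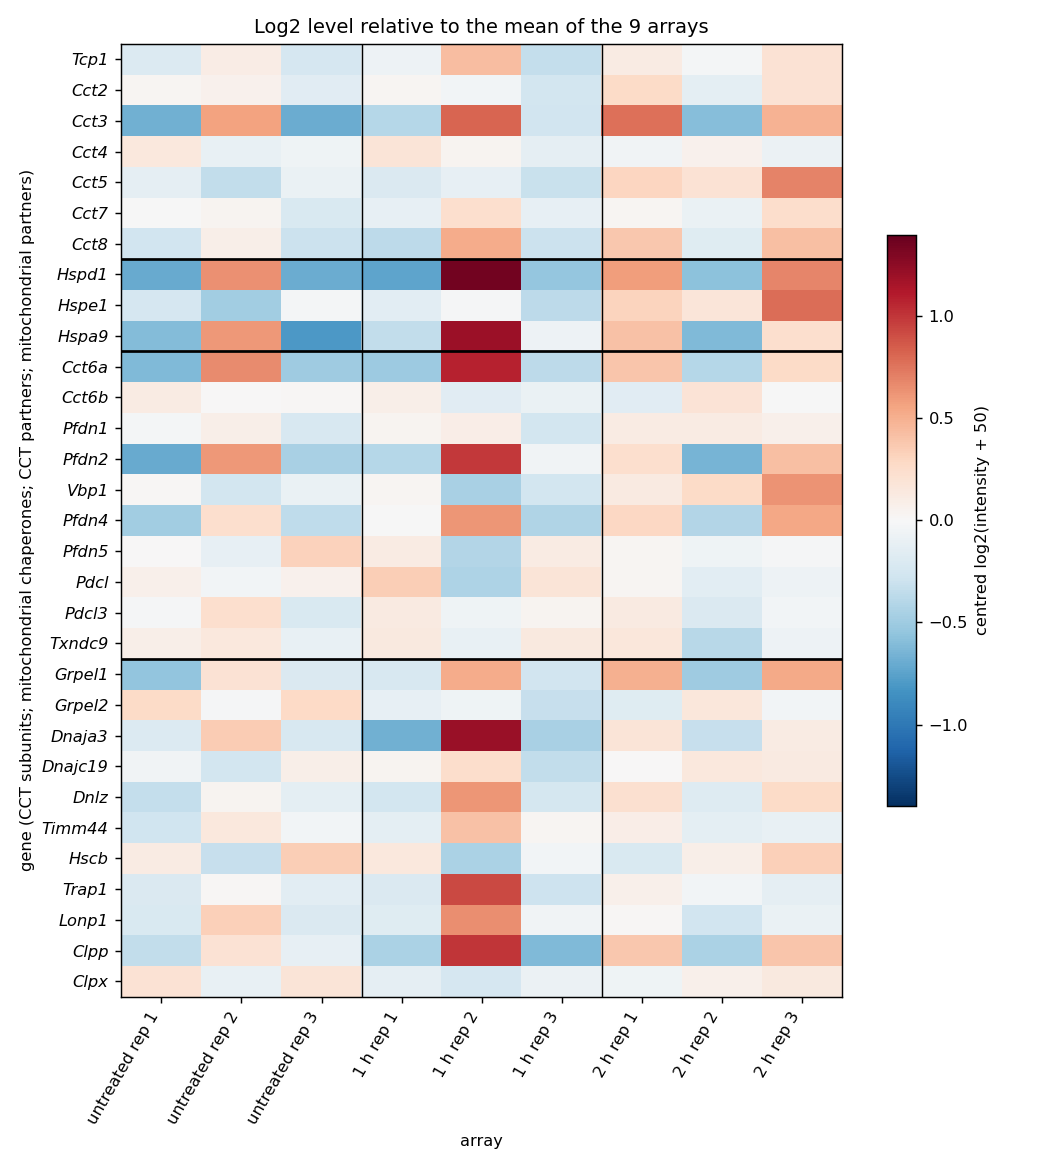
Log2(intensity + 50) of the 10 genes, 10 measured CCT partners and 11 mitochondrial partners on each array, relative to the gene's mean over the 9 arrays (red above, blue below); horizontal lines separate the lists and vertical lines the labelled groups. The column of 1 h replicate 2 is the reddest for Hspd1, Hspa9, Cct6a, Dnaja3 and Clpp, and the 3 columns of 2 h are red together for Cct5, Hspe1 and Vbp1.

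The mean profile of the 7 CCT members over the arrays ran from -0.25 to 0.31 on the centred log2 scale. By mean absolute distance over the 9 arrays, the named genes nearest to it outside the members were Tmem120b, Impdh1, Raly, Slc1a2 and Desi2, at 0.034 to 0.061, against a median of 0.24 over all named genes. Its own members lay at 0.078 (Cct7) to 0.39 (Cct3). The mean of the 3 mitochondrial members ran from -0.52 to 0.84, and the nearest genes were Vkorc1l1, Il2ra, Mcrip2, Supv3l1 and Eif1ad, at 0.071 to 0.090, against a median of 0.48. Among them Il2ra, the alpha chain of the IL-2 receptor and an activation marker of lymphocytes, gave 4.16, 53.0 and 8.04 for untreated cells, 12.1, 80.5 and 13.7 for 1 h and 51.2, 4.27 and 68.1 for 2 h. All profiles come from the same 9 arrays, and no p-value is given.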

How the data were processed

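The authors deposited a table of linear intensity values for 45281 probes on 9 arrays. Per the labels' protocols, RNA was extracted with Trizol and RNeasy and biotin-labelled cRNA was made with an Ambion kit; the sources used here do not name the software behind the values. In the deposited intensities, background had been subtracted (31.8% of values below 0) and arrays normalized (medians 3.76 to 3.77). A second deposited table has 9 columns that match no single sample's label and was not used. Probes were kept if above noise (the upper 0.05 tail of values below 0, mirrored around 0) on at least 3 arrays. The probe annotation gives 1 symbol for 34885 probes, several for 18 and none for 10378, and 34807 probes matched RefSeq genes by ID. Of the 20983 probes kept, the probe with the highest mean stood for its gene, giving 14640 features.

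The deposited intensities were taken as log2(intensity + 50) and fitted with limma 3.58.1 in R 4.3.3 (a mean per labelled group, 9 arrays, 6 residual degrees of freedom). All tests were two-sided, with Benjamini-Hochberg adjustment over 14640 features and calls at an adjusted p under 0.05. The members, companion lists and tests were chosen with earlier results of these data known. Companions named are the 4 with the highest mean of each list, unless marked. On simulated data with 200 changed features of 14640 in the 2 h against untreated comparison, the fit recovered 62.3% of 2-fold and 90.0% of 4-fold changes, with 9.33 false calls per run. The simulated features had their own residual spread and varied independently of one another. In the data, deviations were shared across features, with correlations between arrays of -0.79 to 0.80. The simulated rates therefore need not hold for the fit of these arrays. Alternatives covered the offset, normalization, filter, probe choice, replicate block, arrays fitted, array weights and leaving out each array. The number of arrays and their spread limit the precision, and no sequencing depth applies.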

Additional observations from a re-analysis of the deposited data

How the results depend on the processing

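Under offsets of 16 and 100, quantile normalization, both other filters on dim probes, both other probe rules, a replicate block and fits of only 6 arrays, limma called 0 features and 0 members in each comparison, and the value taken for each member kept its direction (further probes of Cct3 and Hspd1 with the opposite sign are given above; Cct7 was not above noise on all 9 arrays and had no value under that filter). The members' median ranged from 0.086 to 0.12 at 1 h, 0.30 to 0.37 at 2 h and 0.13 to 0.20 between the times. With the replicate block, the median at 2 h was 0.32 and the calls stayed at 0. Whether replicate numbers pair the arrays is not stated. Across features, deviations from the group means of same-numbered untreated and 1 h arrays correlated at 0.24 to 0.57. Same-numbered pairs with a 2 h array correlated at -0.79 to -0.34. Because several arrays did not follow their labels, these correlations cannot decide whether the numbers pair arrays. Leaving out 1 array in turn also gave 0 calls, with medians of -0.072 to 0.20, 0.20 to 0.58 and 0.0096 to 0.42, and it turned the sign of uncalled differences, given as ranges over the 9 fits. For 1 h against untreated, these were -0.14 to 0.015 for Cct2, -0.070 to 0.73 for Cct3, -0.043 to 0.11 for Cct4, -0.11 to 0.025 for Cct5, -0.058 to 0.12 for Cct7, -0.17 to 0.27 for Cct8, -0.38 to 0.73 for Hspd1, -0.048 to 0.18 for Hspe1 and -0.095 to 0.29 for Tcp1. For 2 h against untreated, these were -0.068 to 0.057 for Cct4. For 2 h against 1 h, these were -0.10 to 0.58 for Cct3, -0.13 to 0.024 for Cct4, -0.032 to 0.18 for Cct7, -0.55 to 0.22 for Hspa9, -0.17 to 0.87 for Hspd1 and -0.086 to 0.30 for Tcp1. Array weights, estimated from these same arrays and lowest for the 3 arrays labelled replicate 2, called 1, 4898 and 25 features (1 h, 2 h and 2 h against 1 h) and 6 members at 2 h, all higher (Cct3, Cct5, Cct8, Hspd1, Hspe1 and Hspa9, against 15% of features). The weighted medians were -0.020, 0.58 and 0.48. The weights turned Cct4 (-0.053), Cct7 (-0.034), Cct8 (-0.0057) and Hspe1 (-0.037) at 1 h and Hspa9 between the times (0.36). Without the 3 arrays labelled replicate 2, chosen after seeing the data, 1073, 5088 and 3765 features and 1, 7 and 6 members were called, the members' median was -0.012 at 1 h and 0.64 at 2 h, with 0.63 from 1 h to 2 h, and the sign turned for Cct4 (-0.017), Cct7 (-0.0074), Cct8 (-0.051) and Hspe1 (-0.13) at 1 h and for Hspa9 between the times (0.53). Other members also moved there without a change of sign, Cct5 to -0.16 at 1 h and, between the times, Cct3 to 0.97, Cct7 to 0.25 and Hspd1 to 1.28. Cct7 and Cct2 lie near background, which limits what their values can show. The cause of these changes was not tested.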

Other observations

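Heat shock proteins of the cytosol, which feed clients to CCT, were measured for 7 of 12 listed genes. In each comparison limma called 0 of them, as over all features. Before adjustment, 1, 1 and 1 of them had a limma p under 0.05 for 1 h, 2 h and 2 h against 1 h. Differences above 0 were 7 of 7 at 1 h and 6 of 7 at 2 h, against 48.6% of all features, with medians of 0.29 and 0.24. The highest array was 1 h replicate 2 for 4 of these 7, against 18.3% of all features. The counts were not retaken without that array. Dnajb1, a J-protein whose gene is a classical heat shock target, gave 1042, 966 and 886 for untreated cells (in replicate order), 1548, 967 and 1384 for 1 h and 887, 973 and 915 for 2 h, with 1 h replicates 1 and 3 above the other 7 arrays. The inducible Hsp90 gene Hsp90aa1 gave 319.9, 515 and 298 for untreated cells (in replicate order), 362, 718 and 368 for 1 h and 786, 364 and 891 for 2 h, high on the arrays on which Hspd1 was high. The cochaperone gene Stip1 gave 553, 966 and 502 for untreated cells (in replicate order), 582, 1312 and 688 for 1 h and 807, 485 and 768 for 2 h. Hspa8, the constitutive Hsp70 gene, spanned 9996 to 13443 in the probe used, highest on 1 h replicate 2. Its further probes differed. One gave 2640, 2842 and 2956 for 2 h (in replicate order), above all other arrays (2054 to 2562). The 2 h against untreated difference was 0.37 for that probe, 0.045 for the probe used and -0.20 for the remaining one. The inducible Hsp70 genes Hspa1a and Hspa1b had no probe above noise on at least 3 arrays.

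Chaperones of the endoplasmic reticulum were measured for 7 of 9 listed genes. As over all features, 0 were called by limma (0, 0 and 0 of the 7 at an unadjusted p under 0.05). Differences were above 0 for 6 of 7 at 1 h and 3 of 7 at 2 h, against 48.6% of all features. The highest array was 1 h replicate 2 for 5 of these 7, against 18.3% of all features. The counts above 0 were not retaken without that array. The lectin chaperone gene Calr stood at 1337 on 1 h replicate 2 and at 335 to 502 on the other 8 arrays. Its 1 h replicates 1 and 3 were at 433 and 335, against 385 to 502 for untreated cells. Its 1 h difference of 0.37 thus rested on 1 h replicate 2. Hsp90b1 had 2518 on that array, against 1086 to 1524, and the disulfide isomerase gene Pdia3 had 2873, against 1479.7 to 2096. Pdia4, another disulfide isomerase gene, gave 1729, 963 and 1915 for untreated cells (in replicate order), 1596, 899.7 and 1482 for 1 h and 910.3, 1809 and 903 for 2 h, lowest on the 4 arrays on which Hspd1 was high.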
